A study of Homo sapiens with 6 samples.

Results

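The genes described here make fatty acids from cytosolic acetyl-CoA and then desaturate, elongate and activate them. The list has 10 genes, which were chosen by symbol: ACLY and ACSS2 (supply of acetyl-CoA), ACACA and FASN (building of the chain), SCD, FADS1 and FADS2 (desaturation), ELOVL5 and ELOVL6 (elongation) and ACSL3 (activation to acyl-CoA). Probe sets of 9 of them were measured, among 18417 genes in all, and ACSL3 was not analysed here. Each of the 9 had 1 probe set.

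ATP-citrate lyase (ACLY) splits citrate exported from mitochondria, and the synthetase ACSS2 makes acetyl-CoA from acetate. Acetyl-CoA carboxylase (ACACA) turns acetyl-CoA into malonyl-CoA, the committed step, and fatty acid synthase (FASN) joins these units into palmitate, which elongases lengthen and desaturases unsaturate. Most of these genes are known targets of the SREBP transcription factors, which the kinase mTORC1 activates, and prostate carcinoma is known for high fatty acid synthesis.

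RNA came from Du145, an established human prostate carcinoma line grown in high-glucose medium with 10% serum, at 37 °C with 5% CO2. All groups were kept in 1% oxygen, and the labels give 24 h of hypoxia. The groups were control cells, cells with a lentiviral short hairpin RNA against TSC2 (shTSC2), and cells labelled as adapted from the knockdown (shTSC2-adapted), with 2 arrays each. TSC2 is the brake on mTORC1. The adaptation is not described in the labels, nor whether the control carried a virus, how many hairpins or clones were used, or if the arrays of a group came from separate cultures, so p-values cover only how far these arrays scatter, and part of that scatter may be technical.

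TSC2 was at 7.52 and 7.59 on the control arrays, 6.67 and 6.55 in shTSC2 and 6.54 and 6.48 in shTSC2-adapted, all as log2 intensities. It was lower by 0.94 in shTSC2 than in control (-0.94, SE 0.10, adjusted p = 0.00102, limma) and also lower in shTSC2-adapted than in control (-1.05, adjusted p = 0.0241). The latter adjusted p was 0.0973 to 0.386 without any 1 control or shTSC2-adapted array, and 0.0515 with the array number as a block. The epithelial keratins KRT8 and KRT18 were bright on every array (11.22 to 11.50), and KLK2 and KLK3, markers of androgen-dependent luminal cells, were dim (5.01 to 5.60, below the median of all probe sets, 5.91). Fat cells and hepatocytes also make fatty acids. Of 9 adipocyte markers, PLIN1 and CFD rose in shTSC2. The summed level of the 9 was 9.14 to 9.24 in control, 9.41 to 9.42 in shTSC2 and 9.18 to 9.19 in shTSC2-adapted. Their mean levels over all arrays ran from 3.37 (FABP4) to 8.00 (CFD), and 2 of the 9 lay above the median of all probe sets. The summed level of 7 hepatocyte markers was 7.93 to 7.95, 7.98 to 8.00 and 7.93 to 8.05 in that order. Of 9 markers of embryonic kidney lines, NEFM and PAX2 rose in shTSC2 (0.99, adjusted p = 0.0130, and 0.49, adjusted p = 0.0121), with summed levels of 9.45 to 9.46, 9.61 to 9.79 and 9.55 to 9.84. These 4 marker calls were each lost without either control array (0.0815 to 0.224), and the part of such cells in the results was not tested. In shTSC2-adapted against shTSC2, the adipocyte marker PPARG passed as higher (0.40, adjusted p = 0.0448) and CFD as lower (-0.48, adjusted p = 0.0236, limma). The call of CFD there was lost with only the 4 arrays compared (0.0619) and with a trend on gene span removed (0.0516). It was also lost without any 1 array other than shTSC2 array 2. The call of PPARG was not tried under other settings. No marker passed in the lists of hepatocytes, lymphoid and myeloid cells, fibroblasts or endothelium in any comparison.

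In shTSC2, 4 of the 9 measured genes fell and 0 rose. ACLY fell to 35.1%, ELOVL6 to 32.8%, ACACA to 59.3% and ELOVL5 to 69.3% of the control level, while FASN, SCD, FADS1, FADS2 and ACSS2 did not pass the test. No desaturase of the 9 was among those that fell, although the desaturase genes SCD5 and FADS3, described below, did fall. A difference between the steps of the pathway was not tested. Among all genes 13.9% passed as lower and 6.87% as higher (1266 higher and 2567 lower, or 868 and 2962 after centring each array on its median), so the share of 44.4% lower stood above that of all genes. Each of the 9 was brighter than at least 62.2% of all genes. With dim genes left out, 2473 of 11197 genes passed as lower and 1154 as higher, and the same 4 genes fell. The median difference was -0.41 over the 9 genes and 0.03 over all genes. At an unadjusted p under 0.05, 4 of the 9 genes passed, beside 6129 of 18417 in either direction. In RNA from whole cultures, fewer cells of a kind and less RNA per cell cannot be told apart.

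For the supply of acetyl-CoA, ACLY measured 10.81 and 10.89 on the control arrays and 9.60 and 9.08 in shTSC2. Both shTSC2 arrays lay more than 1 log2 unit below both controls, and the difference was -1.51 (SE 0.16, 95% interval -1.89 to -1.13, adjusted p = 0.00126). ACSS2 was at 8.12 and 8.38 in control and at 8.33 and 7.35 in shTSC2. Here the groups overlapped, since only the second shTSC2 array was low, and the difference of -0.41 did not pass (interval -1.31 to 0.49, adjusted p = 0.507). Without that array it was 0.08.

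For the building of the chain, ACACA was at 7.76 and 7.80 in control and at 6.95 and 7.10 in shTSC2. The arrays of each group lay close together, and the difference was -0.75 (SE 0.10, interval -0.98 to -0.53, adjusted p = 0.00223). FASN, which takes the next step, was at 8.14 and 8.30 in control against 8.42 and 8.29 in shTSC2. Its groups overlapped, and its difference of 0.13 had an interval of -0.12 to 0.39 (adjusted p = 0.431), which leaves out any fall of the size measured for ACACA.

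Among the elongases, ELOVL6, which acts on saturated and monounsaturated chains of palmitate length, was at 7.47 and 7.78 in control and at 6.17 and 5.86 in shTSC2. The lower shTSC2 value lay near the median of all probe sets (5.91). The difference was -1.61 (SE 0.22, interval -2.12 to -1.10, adjusted p = 0.00257), and 93 of all genes had a lower difference. ELOVL5, which lengthens polyunsaturated chains, was at 11.10 and 11.13 in control and at 10.71 and 10.46 in shTSC2. Its fall of 0.53 (-0.53, interval -0.83 to -0.23, adjusted p = 0.0240) did not pass without control array 1 (0.130), control array 2 (0.156) or shTSC2 array 2 (0.0743).

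None of the 3 desaturases passed. SCD, which makes oleate and palmitoleate, was at 10.69 and 10.99 in control and at 11.26 and 11.02 in shTSC2, with both shTSC2 arrays above both controls. Its difference of 0.30 did not pass (interval -0.04 to 0.64, adjusted p = 0.200). FADS1 and FADS2 put double bonds into polyunsaturated chains. FADS1 was at 9.88 and 9.89 in control and 9.84 and 9.72 in shTSC2 (-0.11, interval -0.35 to 0.14, adjusted p = 0.531). FADS2 was at 10.62 and 10.72 in control and 10.59 and 10.18 in shTSC2 (-0.29, interval -0.63 to 0.06, adjusted p = 0.227), and without shTSC2 array 1 it passed as lower (-0.49, adjusted p = 0.0331).

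**Figure D1:**
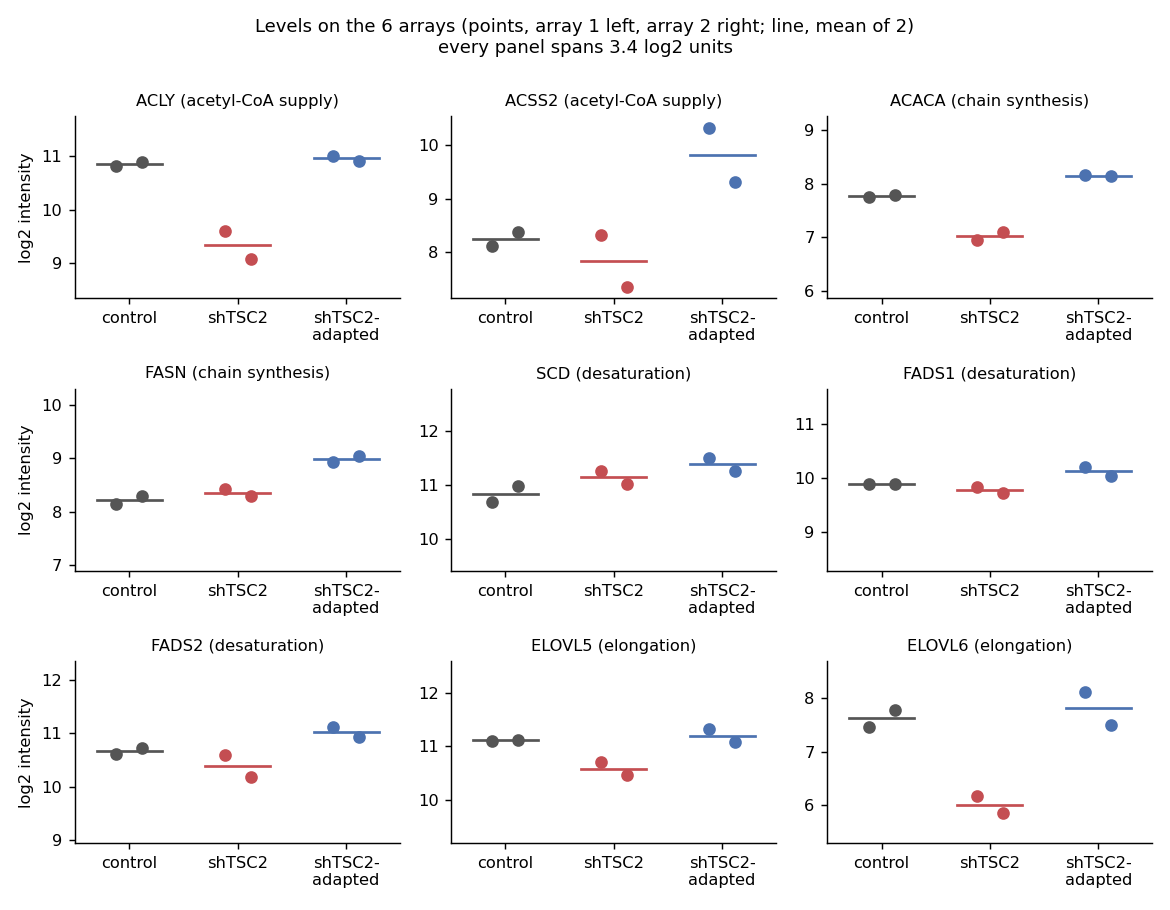
Log2 intensity (y axis) of each of the 9 measured genes on every array, with 1 panel per gene, 1 point per array and a line at the mean of each group of 2. Each panel spans the same number of log2 units but starts at its own level, so heights compare groups within a gene and not genes with each other; ACLY, ACACA, ELOVL6 and ELOVL5 dip in shTSC2, and ACSS2 stands highest in shTSC2-adapted.

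In control against shTSC2, 6 of the 9 genes had both shTSC2 arrays below both control arrays (ACLY, ACACA, ELOVL5, ELOVL6, FADS1 and FADS2), which held for 29.6% of all genes. SCD had both above, which held for 32.4%. Of 5 epithelial markers, KRT19 and EPCAM fell in shTSC2 (-1.38, adjusted p = 0.00664, and -1.29, adjusted p = 0.0271). KRT8, KRT18 and CDH1 did not pass (0.26, 0.17 and -0.14), and the summed level of the 5 was 12.38 to 12.46 in control, 12.51 to 12.56 in shTSC2 and 12.65 in shTSC2-adapted. The call of KRT19 was lost without control array 1 (0.0655), and that of EPCAM without control array 1 (0.181), control array 2 (0.0855) or shTSC2 array 1 (0.0593). Their part in the fall of the 4 genes was not tested.

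The starts of 8 of the 9 measured genes matched the RefSeq promoter table (GRCh38.p14), in 13 windows of 300 bases that run from 250 before to 50 after the start; FASN did not match. Windows of 3 genes that fell (ACLY, ELOVL6 and ELOVL5) and of SCD, which did not, are given to set their sequences side by side, 5′ to 3′ on the strand of the gene. The windows are chr17:41918973-41919272 (ACLY, minus strand), chr4:110198566-110198865 (ELOVL6, minus strand), chr6:53348901-53349200 (ELOVL5, minus strand) and chr10:100346983-100347282 (SCD, plus strand). Capitals mark matches, on either strand, to the GC box GGGCGG, the NF-Y box CCAAT, the E-box CACGTG or the SREBP site TCACNCCAC.
ACLY: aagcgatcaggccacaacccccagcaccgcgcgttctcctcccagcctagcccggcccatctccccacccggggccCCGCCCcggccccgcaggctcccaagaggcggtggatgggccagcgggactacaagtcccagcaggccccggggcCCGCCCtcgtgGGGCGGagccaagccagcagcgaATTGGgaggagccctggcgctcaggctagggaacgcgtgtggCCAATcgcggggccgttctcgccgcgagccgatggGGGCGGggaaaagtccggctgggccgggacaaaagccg
ELOVL6: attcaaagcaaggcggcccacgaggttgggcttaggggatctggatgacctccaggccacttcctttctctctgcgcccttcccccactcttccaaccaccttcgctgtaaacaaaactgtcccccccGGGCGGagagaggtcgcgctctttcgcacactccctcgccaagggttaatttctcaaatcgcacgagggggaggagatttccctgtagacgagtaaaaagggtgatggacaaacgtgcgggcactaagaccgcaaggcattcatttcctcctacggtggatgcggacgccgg
ELOVL5: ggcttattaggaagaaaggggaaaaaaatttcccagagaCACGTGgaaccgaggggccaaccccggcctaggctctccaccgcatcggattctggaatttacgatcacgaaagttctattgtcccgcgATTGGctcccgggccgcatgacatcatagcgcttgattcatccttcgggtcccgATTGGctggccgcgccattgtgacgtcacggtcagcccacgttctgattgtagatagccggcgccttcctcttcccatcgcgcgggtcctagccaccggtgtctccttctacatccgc
SCD: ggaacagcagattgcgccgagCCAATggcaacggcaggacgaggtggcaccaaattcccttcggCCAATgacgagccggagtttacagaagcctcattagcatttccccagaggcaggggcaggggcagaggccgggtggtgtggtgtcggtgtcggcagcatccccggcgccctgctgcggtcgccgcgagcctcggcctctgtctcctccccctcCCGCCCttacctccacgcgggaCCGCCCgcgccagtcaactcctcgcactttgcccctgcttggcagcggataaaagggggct
The ACLY window held 4 GC boxes and 2 NF-Y boxes, that of ELOVL6 held 1 GC box, that of ELOVL5 held 1 E-box and 2 NF-Y boxes, and that of SCD held 2 of each of the GC and NF-Y boxes. Over the 13 windows, GC boxes were in 10 (57.3% of the windows of all genes tested), NF-Y boxes in 8 (34.6%), an E-box in 1 (8.32%) and the SREBP site in 0 (1.12%). SCD, whose level was not lower in shTSC2, had matches of the same kinds as ACLY. A match describes letters in the window only.

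In shTSC2-adapted against shTSC2, 7 of the 9 measured genes rose and 0 fell. ACSS2 was 3.94-fold, ELOVL6 3.47-fold, ACLY 3.08-fold and ACACA 2.19-fold higher, and FASN, FADS2 and ELOVL5 rose 1.53-fold to 1.56-fold. FADS1 and SCD did not pass. Among all genes 9.25% passed as higher and 3.24% as lower, against 77.8% higher among the 9. With dim genes left out, 1717 of 11197 genes passed as higher and 592 as lower, and the same 7 genes rose. All 9 genes had both shTSC2-adapted arrays above both shTSC2 arrays, which held for 25.0% of all genes, and the median difference was 0.64 over the 9 and -0.02 over all genes.

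Of the acetyl-CoA genes, ACLY was at 11.01 and 10.92 in shTSC2-adapted, beside 9.60 and 9.08 in shTSC2, a difference of 1.63 (SE 0.16, interval 1.24 to 2.01, adjusted p = 0.00252). ACSS2 was at 10.33 and 9.31. Its arrays lay far apart in both groups, yet the lower shTSC2-adapted array was still above the higher shTSC2 array. The difference of 1.98 (SE 0.38, interval 1.08 to 2.88, adjusted p = 0.0178) was exceeded by 8 of all genes. It did not pass without shTSC2-adapted array 1 (1.47, adjusted p = 0.0906) or without either control array (adjusted p = 0.0503), which enter through the shared spread only.

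ACACA was at 8.17 and 8.14 in shTSC2-adapted, 1.13 above shTSC2 (SE 0.10, interval 0.90 to 1.36, adjusted p = 0.00155). FASN was at 8.93 and 9.05, and its rise of 0.64 (SE 0.11, interval 0.38 to 0.89, adjusted p = 0.0112) did not pass without shTSC2-adapted array 2 (0.58, adjusted p = 0.0634). ELOVL6 was at 8.12 and 7.50, 1.79 above shTSC2 (SE 0.22, interval 1.29 to 2.30, adjusted p = 0.00380). FASN therefore rose here without having passed as lower in shTSC2, whereas ACACA and ELOVL6 had fallen there.

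ELOVL5 was at 11.32 and 11.08, and its rise was 0.62 (SE 0.13, interval 0.32 to 0.91, adjusted p = 0.0219). FADS2 was at 11.11 and 10.94, with a rise of 0.64 (SE 0.15, interval 0.29 to 0.99, adjusted p = 0.0317). These 2 calls were lost under 5 and 6 of the 16 alternatives. That of ELOVL5 was lost without either control array (0.0653), shTSC2 array 2 (0.0544) or shTSC2-adapted array 1 (0.118). That of FADS2 was lost without either control array (0.0796), shTSC2 array 2 (0.0623), shTSC2-adapted array 1 (0.163) or shTSC2-adapted array 2 (0.0809). FADS1 was at 10.21 and 10.04 (0.35, interval 0.10 to 0.59, adjusted p = 0.0738), and SCD was at 11.50 and 11.27 (0.24, interval -0.10 to 0.59, adjusted p = 0.335). Leaving out a control array, or shTSC2-adapted array 1, brought the count from 7 to 4 genes: ACLY, ACACA, ELOVL6 and FASN passed in each of these fits.

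ACLY, ACACA and ELOVL6 kept their calls in both comparisons under all 16 alternatives tried. Of the 5 epithelial markers, KRT19, EPCAM and CDH1 also rose in shTSC2-adapted against shTSC2 (1.55, 1.65 and 1.54, adjusted p = 0.00772, 0.0173 and 0.00756), whereas KRT8 and KRT18 did not pass (-0.09 and 0.05). The rise of EPCAM did not pass without shTSC2-adapted array 1 (0.0590) or array 2 (0.0992). Their part in the rise of the 7 genes was not tested. All 4 genes that fell in shTSC2 were among the 7. Of the 2567 genes that fell there, 1429 (7.76% of all genes) also passed as higher in shTSC2-adapted against shTSC2, so this was common among genes that fell. Both comparisons share the shTSC2 arrays.

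**Figure D2:**
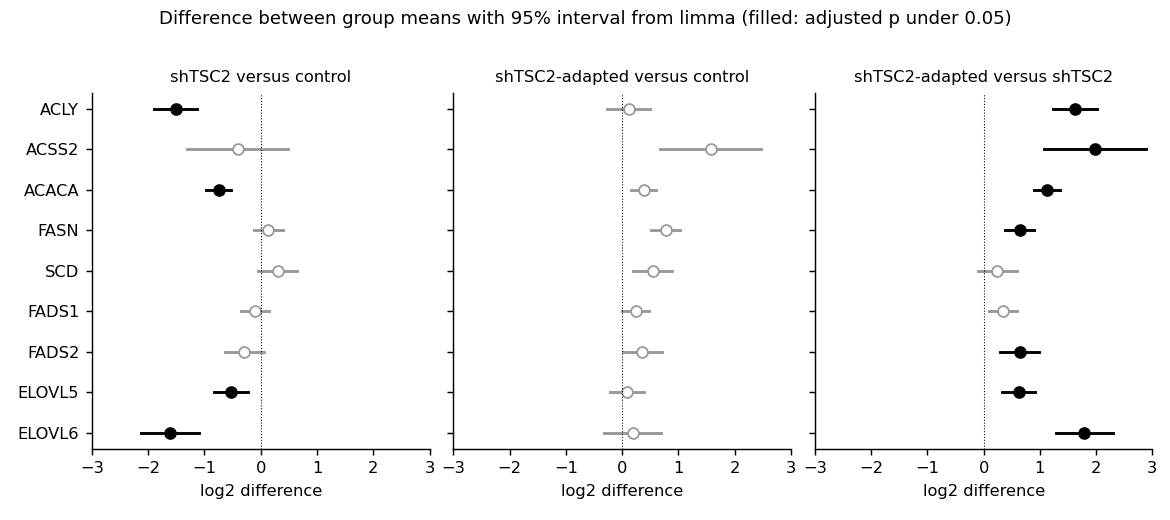
Log2 differences (x axis) of the 9 measured genes (rows) in the 3 comparisons, with bars for the 95% interval from the limma model and filled points for an adjusted p under 0.05. In shTSC2 against control 4 points are filled below 0, in shTSC2-adapted against control none is filled and all 9 lie above 0, and in shTSC2-adapted against shTSC2 7 are filled above 0.

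In shTSC2-adapted against control, 0 of the 9 genes passed in limma, while 5 had an unadjusted p under 0.05 (ACSS2, FASN, SCD, ACACA and FADS2) beside 2317 of 18417 genes. All 9 differences were above 0, with a median of 0.35, whereas 48.9% of all genes were above 0 and their median was 0.00. Only 0.0543% of all genes passed as higher and 0.206% as lower, so few calls were made anywhere in this comparison. For 7 genes both shTSC2-adapted arrays were above both controls, which held for 21.8% of all genes; ELOVL5 and ELOVL6 overlapped.

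ACSS2 was 2.97-fold control (1.57, SE 0.38, interval 0.67 to 2.47, adjusted p = 0.146), and 3 of all genes had a higher difference. FASN was 1.71-fold control (0.77, SE 0.11, interval 0.52 to 1.02, adjusted p = 0.0508), with 46 genes higher. That adjusted p ranged from 0.0142 to 0.530 over the alternatives, and it was 0.0293 without either shTSC2 array. SCD differed by 0.54 (interval 0.20 to 0.89, adjusted p = 0.176), with 192 genes higher, ACACA by 0.38 (interval 0.15 to 0.60, adjusted p = 0.165) and FADS2 by 0.35 (interval 0.01 to 0.70, adjusted p = 0.381). The genes with the widest distance from control here, ACSS2 and FASN, had not passed as lower in shTSC2. For ACSS2 the interval there (-1.31 to 0.49) includes a fall of the size measured for ACACA (-0.75).

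The remaining 4 genes lay nearer to control. FADS1 differed by 0.24 (adjusted p = 0.403), ELOVL6 by 0.19 (interval -0.32 to 0.69, adjusted p = 0.821), ACLY by 0.12 (interval -0.27 to 0.50, adjusted p = 0.867) and ELOVL5 by 0.09 (interval -0.21 to 0.38, adjusted p = 0.873). Without shTSC2-adapted array 1 the differences of ELOVL6 and ELOVL5 were -0.12 and -0.03. The interval of ACLY leaves out a fall of the size measured in shTSC2.

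The arrays within a group did not scatter evenly for these genes. Control array 2 was above array 1 in 9 of 9 genes, beside 8861 of all 18417 genes. The median gap was 0.10 against 0.09 over all genes. In shTSC2 array 1 was higher in 8 of 9 (9591 of all genes), ACACA being the exception, with a median gap of 0.25 against 0.15. In shTSC2-adapted array 1 was higher in 8 of 9 (8232 of all genes), FASN being the exception, with a median gap of 0.17 against 0.12. ACSS2 had the widest gap in both, 0.98 and 1.02. The median of the 9 genes relative to the control mean was -0.08 and -0.65 in shTSC2 and 0.44 and 0.27 in shTSC2-adapted, so the arrays of shTSC2 differed more from each other than those of control (-0.05 and 0.05).

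By their profile over the 6 arrays, ELOVL5 and FADS2 were the closest pair among the 9 (root mean square difference of centred log2 values 0.13), followed by FADS1 and FADS2 (0.15), ELOVL5 and FADS1 (0.18) and ACLY and ELOVL6 (0.19). FASN with SCD and SCD with FADS1 were next (both 0.20). SCD and ELOVL6 were farthest apart (0.84). The values were centred but not scaled, so genes that vary little can lie close even where their directions differ. Ranges over the 6 arrays were 0.49 for FADS1, 0.81 for SCD, 0.86 for ELOVL5 and 0.93 for FADS2. Outside the list, the nearest genes to ACLY were ARHGAP42 (0.07), BMAL1 (0.13) and UBE2T (0.14), and to ELOVL6 they were CENPI (0.14), BMAL1 (0.14) and the sterol gene SQLE (0.18). The nearest to ACACA were PIP4K2A (0.04), NARS2 (0.08) and OSBPL3 (0.09). ACSS2 had no gene as close: CDH1 was at 0.32, the sterol gene DHCR7 at 0.39 and SNORD78 at 0.43. Its range of 2.98 was the widest of the 9, and a wide range by itself makes such distances larger.

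Gene span moved with the change in shTSC2. Over 18389 genes, Spearman's rho between span and the difference was -0.33 in shTSC2 against control and 0.32 in shTSC2-adapted against shTSC2, given as a description across genes, which are not replicates. The 4 genes that fell in shTSC2 were the longest of the 9 (ACACA 322 kb, ELOVL6 153 kb, ELOVL5 81.5 kb and ACLY 63.6 kb), and the other 5 spanned 17.4 to 53.0 kb. With the trend on span removed from each array, the differences in shTSC2 were -1.43 for ACLY (adjusted p = 0.00162), -1.43 for ELOVL6 (0.00435) and -0.59 for ACACA (0.00523), and ELOVL5 no longer passed (-0.42, 0.0596).

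**Figure D3:**
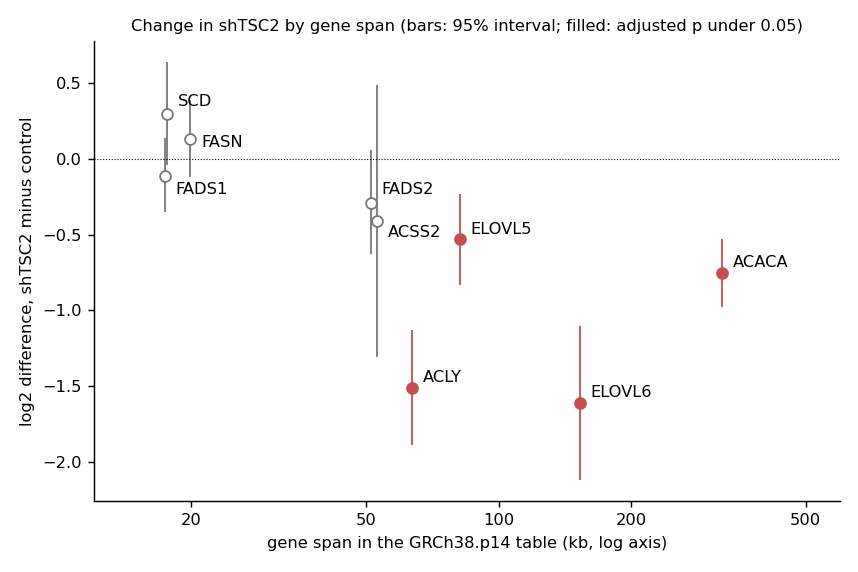
Log2 difference in shTSC2 against control (y axis) of the 9 measured genes by the span of the gene in kb (x axis, log scale), with 95% intervals and filled points for an adjusted p under 0.05. The 4 filled points are the 4 longest genes, from 63.6 to 322 kb, and the 5 open points lie between 17.4 and 53.0 kb.

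The other genes of fatty acid synthesis, desaturation, elongation and activation were taken as a list of their own. Of 27 measured, 10 fell and 0 rose in shTSC2 (37.0% lower, beside 13.9% of all genes, median difference -0.14). In shTSC2-adapted against shTSC2, 9 rose and 0 fell (33.3% higher, beside 9.25% of all genes, median 0.07). No gene of the list passed in shTSC2-adapted against control, where the median was -0.02 beside 0.35 for the 9 genes. ELOVL2 lay below control there (7.21 and 7.04 against 7.83 and 7.75). It passed as lower under some alternatives, among them median centring (-0.71, adjusted p = 0.0242), array weights (-0.67, adjusted p = 0.0199) and only the 4 arrays compared (-0.67, adjusted p = 0.0385). SCD5, the second stearoyl-CoA desaturase, was at 7.26 and 7.32 in control, 6.19 and 6.28 in shTSC2 and 6.84 and 6.97 in shTSC2-adapted. It fell by 1.06 in shTSC2 (-1.06, adjusted p = 7.76e-04), while SCD measured 0.30 above control; the difference between the pair was not tested.

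ELOVL2, which lengthens very long polyunsaturated chains, fell in shTSC2 (-1.20, adjusted p = 7.59e-04). Its rise from there in shTSC2-adapted was 0.53 (adjusted p = 0.0227) and did not pass without any 1 of the control arrays (0.0664), shTSC2 array 2 (0.0560), shTSC2-adapted array 1 (0.121) or array 2 (0.0501). The acyl-CoA synthetases ACSL1 and ACSL4, which activate fatty acids, fell in shTSC2 by similar amounts (-1.04, adjusted p = 8.05e-04, and -1.16, adjusted p = 0.00102) and rose in shTSC2-adapted against shTSC2 (1.00, adjusted p = 0.00246, and 1.13, adjusted p = 0.00270). In shTSC2-adapted against control both measured -0.04. FADS3 fell in shTSC2 (-0.71, adjusted p = 0.0119), but not without control array 1 (0.0927) or control array 2 (0.0899). ACACB, the carboxylase at mitochondria, measured -0.05 (adjusted p = 0.748) and ELOVL1 0.27 (adjusted p = 0.177) in shTSC2.

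Among the regulators of lipid synthesis, 7 of 28 fell and 1 rose in shTSC2 (25.0% and 3.57%, beside 13.9% and 6.87% of all genes, median -0.22). In shTSC2-adapted against shTSC2, 6 rose and 1 fell (21.4% and 3.57%, beside 9.25% and 3.24% of all genes, median 0.10). None passed in shTSC2-adapted against control (median -0.05). The genes of the SREBP factors themselves and of their escort did not pass, whereas that of MBTPS1, a protease that cleaves them, did. The gene of the other SREBP protease, MBTPS2, did not pass. It was at 7.83 and 7.91 in control and at 8.01 and 8.18 in shTSC2, and was not tried under other settings. SREBF1 was at 6.83 and 6.96 in control, 6.61 and 6.58 in shTSC2 and 6.81 and 7.11 in shTSC2-adapted, and differed by -0.30 in shTSC2 (adjusted p = 0.135). SREBF2 differed by -0.27 (adjusted p = 0.122), SCAP, the escort, by -0.11 (adjusted p = 0.448), and MLXIPL, which encodes the carbohydrate-responsive factor ChREBP, by 0.05 (adjusted p = 0.798; -0.04 after quantile normalization and -0.01 after median centring).

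The INSIG proteins hold SCAP in the endoplasmic reticulum. INSIG2 was at 9.98 and 10.09 in control, 8.65 and 8.57 in shTSC2 and 9.85 and 9.52 in shTSC2-adapted, a fall of 1.42 (-1.42, adjusted p = 7.26e-04) and a rise of 1.07 (adjusted p = 0.00371). INSIG1, itself a known SREBP target, was at 8.37 and 8.47, 7.83 and 8.12, and 9.35 and 8.81. Its difference in shTSC2 was -0.44 (adjusted p = 0.138), and it rose in shTSC2-adapted against shTSC2 (1.11, adjusted p = 0.0105). MBTPS1, MBTPS2 and LPIN1, a phosphatidate phosphatase, are named after their values were seen, as are the subunits of NF-Y. MBTPS1 fell in shTSC2 (-1.08, adjusted p = 0.00221), and its difference in shTSC2-adapted against shTSC2 was 0.47 (adjusted p = 0.0704; 0.0356 without shTSC2 array 1). All 3 subunits of NF-Y, the factor that binds CCAAT boxes, fell in shTSC2: NFYA by 1.09 (-1.09, adjusted p = 0.00180), NFYC by 0.75 (-0.75, adjusted p = 0.00176) and NFYB by 0.46 (-0.46, adjusted p = 0.0166; 0.102 and 0.139 without control array 1 or 2). NFYA and NFYC rose in shTSC2-adapted against shTSC2 (0.81, adjusted p = 0.00970, and 0.66, adjusted p = 0.00538; NFYA 0.0669 without shTSC2-adapted array 1), and NFYB measured 0.07 there. LPIN1 was at 7.97 and 8.20 in control, 7.40 and 7.71 in shTSC2 and 8.96 and 8.71 in shTSC2-adapted. Its fall in shTSC2 (-0.53, adjusted p = 0.0431) was lost under 10 of the 16 alternatives, and the difference was -0.42 without control array 2. Both shTSC2-adapted arrays lay above all the others. Against control, LPIN1 passed as higher in shTSC2-adapted with array weights only (0.75, adjusted p = 0.0319).

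SP1, which binds GC boxes, fell in shTSC2 (-1.09, adjusted p = 8.05e-04), and TRIB1, a scaffold for the degradation of lipogenic factors, rose (1.14, adjusted p = 6.15e-04). Both moved back in shTSC2-adapted against shTSC2 (0.77, adjusted p = 0.00516, and -1.08, adjusted p = 0.00188).

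Cholesterol synthesis is the other arm of the SREBP pathway. Of its 17 measured genes, 8 fell and 0 rose in shTSC2 (47.1% lower, beside 13.9% of all genes, median -0.59). In shTSC2-adapted against shTSC2, 14 rose and 0 fell (82.4% higher, beside 9.25% of all genes, median 1.02). None passed in shTSC2-adapted against control (median 0.55). SQLE, squalene epoxidase, fell by 1.66 (-1.66, adjusted p = 8.19e-04) and then rose by 1.98 (adjusted p = 0.00111), and NSDHL, a sterol dehydrogenase, fell by 1.27 (-1.27, adjusted p = 0.00102) and rose by 1.64 (adjusted p = 0.00111). The shares of the cholesterol list were near those of the 9 fatty acid genes. No test of the difference between the lists was made.

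Genes that supply citrate and NADPH moved in both directions. Of 17 measured, 4 rose and 4 fell in shTSC2 (23.5% each, beside 6.87% and 13.9% of all genes, median -0.14). In shTSC2-adapted against shTSC2, 3 rose and 2 fell (17.6% and 11.8%, beside 9.25% and 3.24% of all genes, median 0.21). None passed in shTSC2-adapted against control (median 0.21). The pyruvate dehydrogenase subunits went apart in shTSC2, PDHA1 rising (0.67, adjusted p = 0.00648) and PDHB falling (-0.74, adjusted p = 0.00258). The call of PDHA1 was lost without control array 1 (0.0531) or control array 2 (0.0741). SLC25A11, the oxoglutarate carrier, rose (0.64, adjusted p = 0.00360; 0.0547 without control array 2). ACO1, the cytosolic aconitase, fell (-0.74, adjusted p = 0.0416), a call lost without either control array (0.201 and 0.174) or either shTSC2-adapted array (0.0737), with a pseudocount of 16 (0.0702) or with the span trend removed (0.0654).

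**Figure D4:**
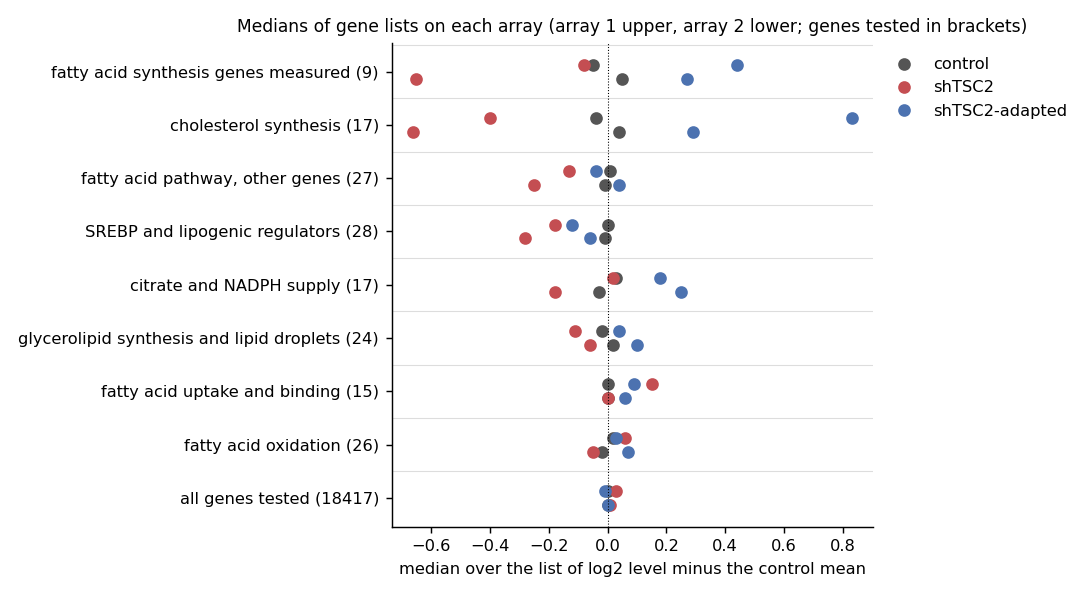
Median over each gene list of the log2 difference from the control mean (x axis), with 1 row per list and 1 point per array, for the 9 measured fatty acid synthesis genes, the other lists and all genes. The 9 genes sit at -0.08 and -0.65 in shTSC2 and at 0.44 and 0.27 in shTSC2-adapted, and cholesterol synthesis at -0.40 and -0.66, then 0.83 and 0.29, while all genes stay within 0.03 of 0.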

How the data were processed

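Total RNA from Du145 cells (100 ng labelled with biotin) was hybridised to 6 arrays, 2 for each of 3 groups taken from the labels. The deposited values are 1 intensity per probe set (linear scale). Per the submitters' processing notes, they were made with RMA, whose version and probe definition were not given in the sources used here. Such processing equalises the arrays, which partly removes any change common to most genes. The log2 of each deposited intensity had 2 decimals to within 6.99e-10, and log2 values were analysed. Arrays have no read depth, and their number limits the precision. Replicate arrays correlated across genes at 0.997 (control), 0.990 (shTSC2) and 0.993 (shTSC2-adapted).

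Of 33297 probe sets, 19460 had 1 symbol in the platform annotation, 1754 had several and 12083 are unnamed here. The GRCh38.p14 gene table held the identifiers of 19429, with 0 symbols changed. The probe set with the highest mean was kept for each of 18417 genes. One linear model per gene over all 6 arrays was fitted in R 4.3.3 with lmFit, contrasts.fit and eBayes of limma 3.58.1, with 3 residual degrees of freedom and two-sided p-values adjusted by Benjamini-Hochberg over 18417 genes. A gene rose or fell at an adjusted p under 0.05. The model was tested on simulated data.

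Named list genes were the widest passing rises and falls of each list in shTSC2 against control, plus a fixed set of regulators and relatives of the measured genes. Others are named after their values were seen, as are the marker genes that passed. The nearest genes were sought for genes with a range above 1 log2 unit, 3 for each. The genes, lists and alternatives were chosen with earlier results of these data known. Promoter sequences and gene spans are from RefSeq (GRCh38.p14). The alternatives were other scalings, filters and moderation, a pseudocount of 16, only the 4 arrays compared, array weights, the array number as a block, removal of the trend on gene span, and each array left out in turn.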

Additional observations from a re-analysis of the deposited data

How the results depend on the processing

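Over 16 alternatives, the 9 genes kept direction and side of the threshold in 398 of 432 cases, lost a call in 20, gained one in 11 and turned sign in 3. The 44 other named genes tried in this way kept both in 1958 of 2103. Of the fatty acid genes, 4 fell in shTSC2, and 3 to 5 when 1 array was left out. In shTSC2-adapted against control, where 0 rose, 1 rose after quantile normalization, without dim genes, with only the 4 arrays compared and with the span trend removed, 2 rose after median centring or with array weights, and 0 to 1 when 1 array was left out. In shTSC2-adapted against shTSC2, where 7 rose, 4 rose with only the 4 arrays compared and 4 to 7 when 1 array was left out.

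When 1 array was left out, these differences changed sign: ACSS2 (-0.90 to 0.08) and MLXIPL (-0.01 to 0.10) in shTSC2 against control; ELOVL5 (-0.03 to 0.21), ELOVL6 (-0.12 to 0.50), ACSL4 (-0.17 to 0.10), LPCAT1 (-0.14 to 0.24), SREBF1 (-0.09 to 0.21), MLXIPL (-0.17 to 0.07), ACACB (-0.07 to 0.10), KRT19 (-0.24 to 0.57) and ACSL1 (-0.08 to 0.01) in shTSC2-adapted against control; and ACADM (-0.06 to 0.39), MLXIPL (-0.21 to 0.02), NFYB (-0.01 to 0.15), NEFM (-0.40 to 0.27) and ACACB (-0.01 to 0.16) in shTSC2-adapted against shTSC2. In shTSC2 against control MLXIPL was at -0.04 after quantile normalization and -0.01 after median centring, and ACACB was at 0.12 with the span trend removed. ACACB was at -0.03 after quantile normalization or median centring in shTSC2-adapted against control, and at -0.07 with the span trend removed in shTSC2-adapted against shTSC2, where NEFM was then at 0.03. The cause was not tested.

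The deviations of same-numbered arrays correlated across genes at -0.10 (control and shTSC2), -0.19 (control and shTSC2-adapted) and 0.21 (shTSC2 and shTSC2-adapted). The numbers were not taken to pair the arrays, since the labels give no shared source and the correlation was above 0 for 1 of 3 pairs of groups. With the replicate block, the TSC2 difference in shTSC2-adapted against control did not pass (-1.05, adjusted p = 0.0515), 4 genes still fell in shTSC2 and 7 rose in shTSC2-adapted against shTSC2. Over all genes the calls in shTSC2-adapted against control went from 48 to 1 with the block, and ranged from 0 (any 1 control or shTSC2-adapted array left out) to 437 (array weights). Those in shTSC2 against control went from 3833 to 1484 and 1175 without control arrays 1 and 2. Those in shTSC2-adapted against shTSC2 went from 2300 to 1113 with only the 4 arrays compared or without either control array, and to 837 and 1181 without shTSC2-adapted arrays 1 and 2. With 1 array left in a group, its spread was taken to be like that of the other groups. Dim signal limits ELOVL6 in shTSC2, near the median of all probe sets.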

Other observations

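Of 24 measured genes of glycerolipid synthesis and lipid droplets, 2 rose and 4 fell in shTSC2 (8.33% and 16.7%, beside 6.87% and 13.9% of all genes; median -0.09). In shTSC2-adapted against shTSC2, 5 rose and 2 fell (20.8% and 8.33%, beside 9.25% and 3.24% of all genes; median 0.13). DGAT1, which makes triglyceride, and ABHD5, which activates its breakdown, rose in shTSC2 (0.89, adjusted p = 0.00203, and 0.97, adjusted p = 0.00336). PLIN3, a droplet coat protein, and LPCAT1, which remodels phospholipids, fell (-1.41, adjusted p = 0.00229, and -1.20, adjusted p = 0.00291). In shTSC2-adapted against shTSC2, DGAT1 fell (-0.77, adjusted p = 0.00647) and LPCAT1 rose (1.25, adjusted p = 0.00500). ABHD5 also passed as lower there and PLIN3 as higher. Neither of these 2 calls held with only the 4 arrays compared (-0.63, adjusted p = 0.0710, and 0.79, adjusted p = 0.0796).

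Of 15 measured genes of fatty acid uptake and binding, 1 fell and 0 rose in shTSC2 (6.67% lower, beside 13.9% of all genes, median 0.07). In shTSC2-adapted against shTSC2, 2 rose (13.3%, beside 9.25% of all genes, median 0.00). The 1 that fell was VLDLR, a lipoprotein receptor (-1.23, adjusted p = 0.00111), which rose in shTSC2-adapted against shTSC2 (0.89, adjusted p = 0.00657). Of 26 measured genes of fatty acid oxidation, 1 rose and 3 fell in shTSC2 (3.85% and 11.5%, median -0.02). These shares were under the 6.87% and 13.9% of all genes. In shTSC2-adapted against shTSC2, 4 rose and 0 fell (15.4% higher, beside 9.25% of all genes, median 0.03). CPT1A, which admits fatty acids to mitochondria, fell (-0.76, adjusted p = 0.0123; 0.108 without control array 1), as did ACADM, the medium-chain dehydrogenase (-0.68, adjusted p = 0.0176; 0.0999 and 0.130 without control array 1 or 2). ETFB, an electron carrier, rose (0.42, adjusted p = 0.0362), but not without control array 1 (0.121), control array 2 (0.244) or shTSC2 array 1 (0.0990), after median centring (0.0921) or with the replicate block (0.0576). No gene of these 3 lists passed in shTSC2-adapted against control, where their medians were 0.08, 0.10 and 0.04.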
